A study of Sus scrofa with 2 samples.

Results

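The matrix metalloproteases (MMPs), the ADAM, ADAMTS and ADAMTS-like (ADAMTSL) families and the tissue inhibitors of metalloproteases (TIMPs) were followed in the stria vascularis (SV) of Mitf R/r and Mitf r/r pigs. Members were taken by name: a gene was included when its symbol, or its Ensembl name where no symbol was given, consisted of one of these 5 family names and a number, with a hyphen or a trailing letter allowed. MMP9 was not part of the set. The rule found 60 genes on 61 of the 27622 features measured, comprising 16 MMP, 19 ADAM, 17 ADAMTS, 4 ADAMTSL and 4 TIMP genes. ADAMTS1 stood on 2 features, of which the one with the higher expression was used.

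RNA-seq was performed on the SV dissected with the lateral wall of the cochlea of Rongchang pigs, with 1 library from Mitf R/r and 1 library from Mitf r/r. The r allele carries short insertions in the distal part of the melanocyte promoter of Mitf, the gene of the melanocyte master regulator. The paper concludes that this stretch had no regulatory activity before and that an insertion created a silencer in it. Mitf r/r animals are albino and deaf. Mitf R/r animals are heterozygous carriers, so that both libraries came from pigs with at least 1 r allele and no Mitf R/R library was analysed here. The sample labels give the age as postnatal day 1 and the text of the study gives embryonic day 85, and this difference could not be settled. The number of animals behind each library and their sex are not given in the sources used here. Expression values were RPKM, mapped reads divided by the length of the exons and by the depth of the library. Levels can so be compared between genes, with less certainty where a feature covers only part of a gene. Because each genotype had 1 library, no replicate spread was measured and no p-value is given. The 95% intervals below come from the numbers of reads and cover counting error only, so that an interval on one side of no change separates these libraries and not the genotypes. Both libraries had similar depth, 15829244 reads for Mitf R/r and 14258672 for Mitf r/r, with 89.4% and 89.3% of them on the features.

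MMPs are secreted or membrane-bound zinc proteases that cut collagens and other matrix proteins and are made as inactive precursors. ADAMs are membrane proteases that release growth factors, receptors and adhesion molecules from the cell surface, ADAMTS proteases are secreted and cut proteoglycans, procollagens and other matrix proteins, and ADAMTSL proteins share the non-catalytic domains of ADAMTS proteases but have no protease domain. TIMPs are secreted inhibitors that block these proteases with different preferences. The SV lies on a collagen-rich ligament and is built from marginal, intermediate and basal cells around a dense capillary bed, with melanocytes forming the intermediate layer.

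MITF, the mutated gene, stood on 3 features at 51.7, 11.9 and 10.1 RPKM in R/r and 37.8, 8.36 and 7.27 RPKM in r/r, values that do not separate its melanocyte isoform from the others. Markers of the SV and of its surroundings were detected and several differed between the libraries. Of 10 melanocyte markers, 8 could be compared, with a median log2 ratio (r/r over R/r) of -5.01 and a summed level of 327 RPKM in the R/r library and 53.1 RPKM in the r/r library. MLANA was at 0 in the r/r library, whereas KIT was at 43.6 and 44.2 RPKM and TYRP1 was close to 0 in both. Marginal cell markers summed to 1586 and 1168 RPKM and markers of fibrocytes and basal cells to 7893 and 5877 RPKM. Most of these differences lay in ATP1B2 (915 and 522 RPKM) and COCH (6826 and 4914 RPKM), whereas SLC12A2 and TBX18 of the same lists were higher in the r/r library (0.05 to 0.15 and 0.22 to 0.29). Markers of bone, which surrounds the cochlea, were lower in the r/r library for 11 of 12 genes, with a median log2 ratio of -0.65 and sums of 2817 and 1863 RPKM. Markers of cartilage had ratios below 0 for 7 of 8 genes compared, with sums of 5956 and 4863 RPKM and COMP and MATN1 near 0. Those of endothelium summed to 222 and 214 RPKM and those of osteoclasts to 164 RPKM in both, with OCSTAMP at 0. Markers of macrophages and neutrophils summed to 44.0 and 39.7 RPKM, and those of muscle to 17.5 and 15.7 RPKM. The part of any of these in the values below was not tested, and in bulk tissue fewer cells of a type and less RNA per cell cannot be told apart. For intermediate cells the paper reports that they were still present in the embryonic r/r SV and were lost around birth. It draws on electron microscopy and on marker genes whose expression remained in its RNA-seq of the r/r SV. It takes the expression differences as not due to a lack of these cells. Whether the electron microscopy applies to these libraries depends on their age, which is unsettled.

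The protease and inhibitor genes were expressed over a wide range, and among those with a difference beyond counting error lower levels in the r/r SV were the more frequent. Of the 60 genes, 41 were above 0 in both libraries with at least 1 RPKM in one and were compared. ADAM22 was the only one of these that passed 1 RPKM in the R/r library alone. The median log2 ratio of the 41 was -0.16, against -0.02 for all 16331 genes compared. A ratio below 0 was found for 28 of the 41 (68.3%), while 53.3% of all genes had one. The counting interval lay below no change for 17 (41.5%) and above it for 3 (7.32%), whereas the shares for all genes were 14.5% and 11.2%. Depth alters these shares, and among genes with at least 100 reads over both libraries the interval lay below no change for 17 of 35 members (48.6%) and 16.8% of all genes, and above it for 3 members (8.57%) and 13.0% of all genes. A difference of at least 2-fold, the fold that the study used, was reached by 1 member of 41 (2.44%), ADAMTS12. Of all genes, 3.99% reached it (2.20% lower and 1.78% higher in r/r). Depth alters this share too. With at least 100 reads, 97 of 12863 genes were at least 2-fold lower and 69 at least 2-fold higher, beside 1 of 35 members. The study's own list of 2-fold genes gives a p-value for each. It holds A2M and LGI4, described below, but not ADAMTS12, so the fold alone is not the rule of that list. The differences were mostly small. A log2 ratio of -0.5 or below was found for 7 members (17.1%) against 7.97% of all genes, and one of 0.5 or above for ADAMTS3 alone (2.44%) against 5.71%.

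**Figure D1:**
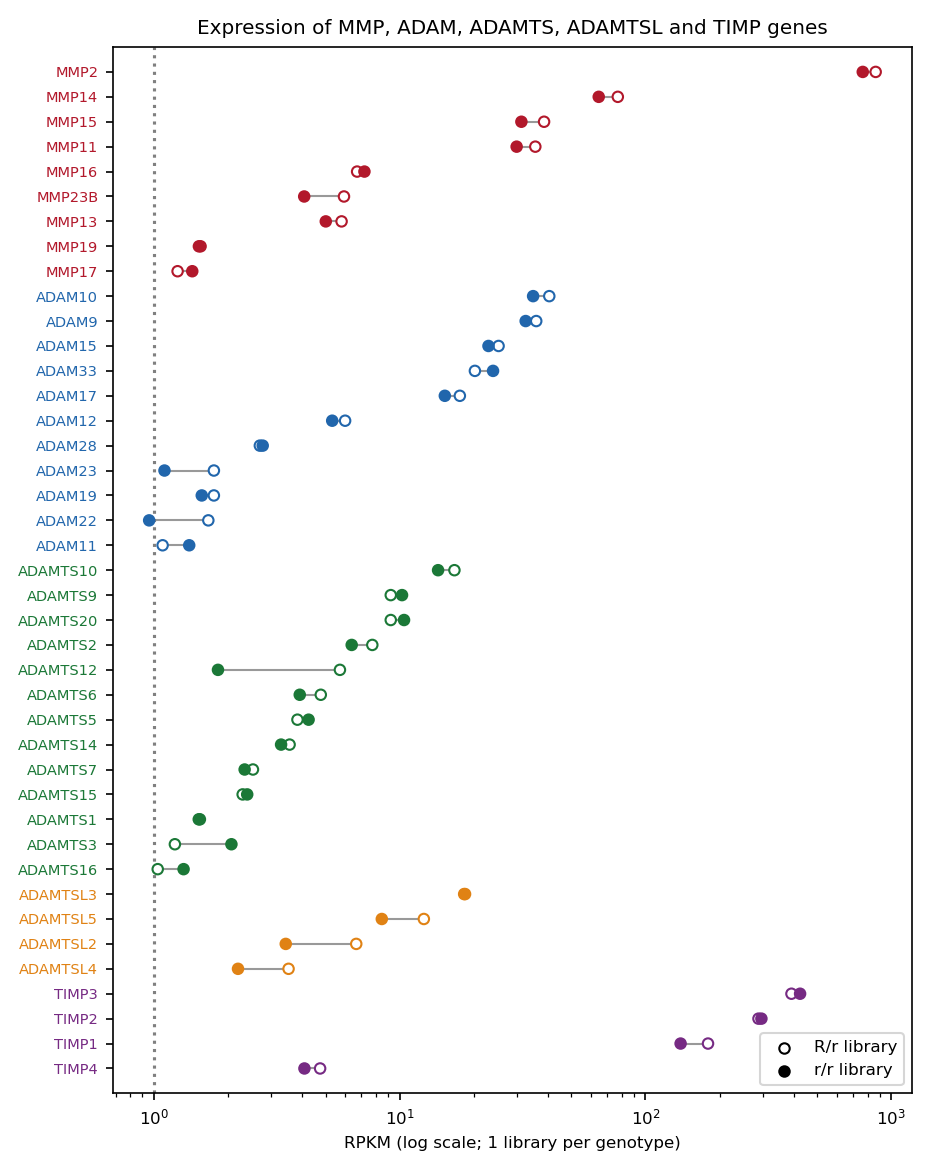
RPKM on a log axis for the 41 genes compared, grouped by family and ordered within it by the R/r level, with open points for the R/r library, filled points for the r/r library and a dotted line at 1 RPKM. MMP2 sits highest at 863 and 765 RPKM, followed by TIMP3, TIMP2 and TIMP1, and ADAMTS12 has the widest gap, from 5.72 to 1.83 RPKM.

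MMP2 dominated the MMPs of the set, and the most abundant members were modestly lower in the r/r SV. MMP2 (gelatinase A, which cuts basement membrane collagen and denatured collagens) was at 863 RPKM in the R/r library and 765 RPKM in the r/r library and ranked 69th and 86th by level among all 27622 features. It made up 83.2% and 84.0% of the summed RPKM of the 16 MMP genes of the set, to which MMP9 and MMP3 do not belong. The log2 ratio was -0.17 (95% interval -0.20 to -0.15) on 38552 and 30771 reads, by far the deepest coverage of any member.

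The membrane-type MMPs act at the cell surface. MMP14 (MT1-MMP, the main activator of the MMP2 precursor) had 77.2 and 64.6 RPKM, a log2 ratio of -0.26 (-0.32 to -0.19). MMP15 (MT2-MMP) had 38.7 and 31.3 RPKM, a log2 ratio of -0.31 (-0.40 to -0.21). The rarer MMP16 (6.72 and 7.20 RPKM, -0.25 to 0.45) and the lipid-anchored MMP17 (1.25 and 1.44 RPKM, -0.57 to 0.97) had intervals that spanned no change, and MMP25 stayed under 1 RPKM with 19 reads in each library. Summed, the 5 membrane-type genes went from 124 to 105 RPKM between the libraries.

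MMP11, which furin activates inside the cell before secretion, was at 35.7 and 29.9 RPKM on 320 and 242 reads, with a log2 ratio of -0.25 (-0.50 to -0.01) whose interval reached past no change when values were scaled by the median ratio or the upper quartile. MMP23B, an MMP without the usual cysteine switch, was at 5.94 and 4.10 RPKM on 145 and 90 reads. Its log2 ratio of -0.54 (-0.93 to -0.15) was the lowest among the 9 MMPs compared, a level 1.45-fold lower in the r/r library. The collagenase MMP13, known from cartilage and bone, had 5.81 and 5.01 RPKM with an interval of -0.60 to 0.17, and MMP19 was level at 1.55 and 1.53 RPKM. The median over the 9 MMPs was -0.21. Together the MMPs of the set summed to 1037 RPKM in the R/r library and 910.3 RPKM in the r/r library, and without MMP2 to 174 and 146 RPKM.

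Of the 16 MMP genes, 7 were nearly or fully silent and were not compared. MMP1 (9 and 3 reads), MMP12 (9 and 2 reads) and MMP25 were above 0 in both libraries but under 1 RPKM. MMP8 had 2 reads in the R/r library alone, MMP7 and MMP20 had 1 read each in the r/r library alone, and MMP27 was at 0 in both. A count of 0 allows up to 3 reads, or 0.150 RPKM for MMP8 in the r/r library and 0.152 RPKM for MMP7 in the R/r library. The annotation of the feature named MMP20 describes MMP25 in the deposited table, so its identity is uncertain.

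Several of these genes are neighbours in RefSeq annotation of a later assembly, which was used for gene order only. In that order MMP7, MMP20, MMP27, MMP8, MMP1, MMP3, MMP12 and MMP13 form a run of 8 adjacent genes, of which 2 reached 1 RPKM. MMP3 (stromelysin 1, a broad matrix protease) was no member by the naming rule, because the table gave it in the description alone, and it is included here after its values were seen. It was at 3.06 and 1.46 RPKM on 86 and 37 reads, a log2 ratio of -1.07 (-1.66 to -0.49). Over the run the R/r library had 236 reads and the r/r library 145, a log2 ratio of -0.55 (-0.86 to -0.25), and nearly all of them belonged to MMP3 and MMP13. Without MMP3 the run had 150 and 108 reads, a log2 ratio of -0.32 whose interval spanned no change (-0.69 to 0.04).

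**Figure D2:**
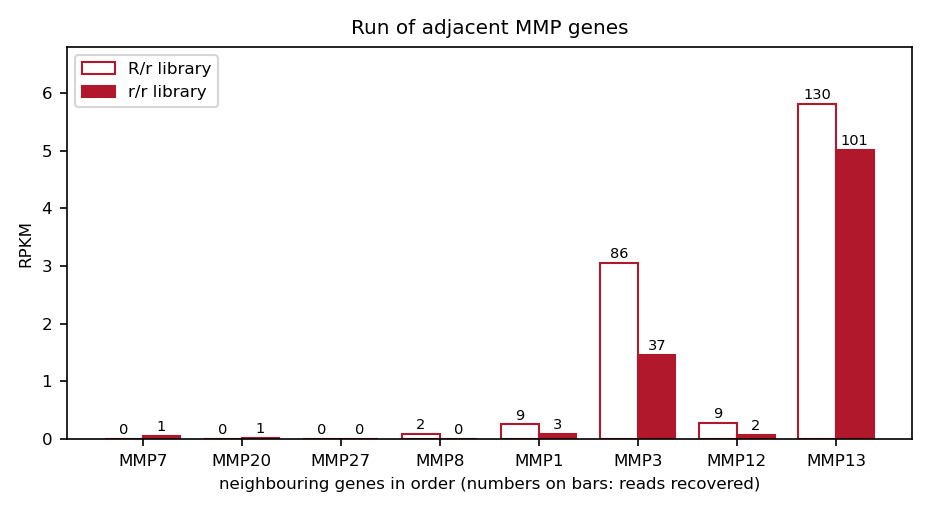
RPKM of the 8 adjacent MMP genes in their RefSeq order, with open bars for the R/r library, filled bars for the r/r library and the reads recovered written on each bar. MMP3 and MMP13 are the only bars above 1 RPKM, and the other 6 genes carry at most 9 reads in a library.

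The most abundant ADAM genes were sheddases, and 4 of the 8 compared had intervals below no change, beside 14.5% of all genes. Among these, ADAM17 no longer did so when the reads of its second feature were added. Of the 9 sheddases, 8 were compared, with ADAM8 under 1 RPKM (0.635 and 0.913 RPKM on 17 and 22 reads). Ratios were below 0 for 6 of the 8, beside 53.3% of all genes. The 8 had a median of 1404 reads, against 449 for all genes, so the share of intervals is not matched for depth. The summed level of the 9 genes was 151 RPKM in the R/r library and 140.4 RPKM in the r/r library.

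ADAM10 (the main sheddase of Notch receptors, cadherins and many other surface proteins) was at 40.6 and 34.9 RPKM, a log2 ratio of -0.22 (-0.30 to -0.13) on 2502 and 1937 reads. ADAM17 (the protease that frees tumour necrosis factor and ligands of the EGF receptor) was at 17.6 and 15.3 RPKM, a log2 ratio of -0.20 (-0.39 to -0.01). Both genes had a second feature that the table identifies in the description alone. That of ADAM10 was at 30.7 and 30.5 RPKM, and adding its reads gave a log2 ratio of -0.20 (-0.29 to -0.12). That of ADAM17 was at 12.6 and 13.0 RPKM, and with its reads added the log2 ratio was -0.10 and the interval spanned no change (-0.25 to 0.04). The quotient of ADAM10 over ADAM17 was the same within counting error in both libraries, 2.31 and 2.29.

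ADAM9 and ADAM15, widely expressed relatives with adhesive as well as shedding functions, were close to them in level. ADAM9 had 36.0 and 32.6 RPKM with a log2 ratio of -0.14 (-0.25 to -0.03), and ADAM15 had 25.3 and 23.0 RPKM with a log2 ratio of -0.14 (-0.26 to -0.01), and the intervals of ADAM15 and ADAM17 reached past no change with scaling by the median ratio. ADAM33, a protease of mesenchymal cells, went the other way, with 20.2 RPKM in the R/r library and 24.0 RPKM in the r/r library on 902 and 963 reads. Its log2 ratio of 0.25 (0.11 to 0.38) was the highest among the 8 sheddases compared, and 5.68% of genes with as many reads had a higher one. It made up 13.0% of the summed ADAM level in R/r and 16.6% in r/r. ADAM12 (6.01 and 5.32 RPKM), ADAM28 (2.70 and 2.78 RPKM) and ADAM19 (1.76 and 1.57 RPKM) had intervals that spanned no change.

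ADAM11, ADAM22 and ADAM23 have no active protease site and serve as receptors for LGI proteins, secreted ligands of neurons and Schwann cells. ADAM22 was at 1.67 RPKM in the R/r library and 0.959 RPKM in the r/r library on 85 and 44 reads, a log2 ratio of -0.80 (-1.36 to -0.26). ADAM23 was at 1.76 and 1.11 RPKM on 67 and 38 reads, a log2 ratio of -0.67 (-1.28 to -0.07). These were the lowest ratios of the family, 1.74-fold and 1.59-fold lower, at levels close to the minimum. ADAM11 was at 1.09 and 1.40 RPKM, with an interval of -0.24 to 0.97. LGI4, the Schwann cell ligand of ADAM22, was among the genes listed for comparison and had 26.01 RPKM on 939 reads in the R/r library and 7.84 RPKM on 255 reads in the r/r library, a log2 ratio of -1.73 (-1.94 to -1.53). The 7 ADAM genes known mainly from the reproductive tract had 3 and 6 reads in all, and ADAM18, ADAM29 and ADAM30 were at 0 in both libraries. Over the 11 ADAM genes compared the median log2 ratio was -0.16.

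**Figure D3:**
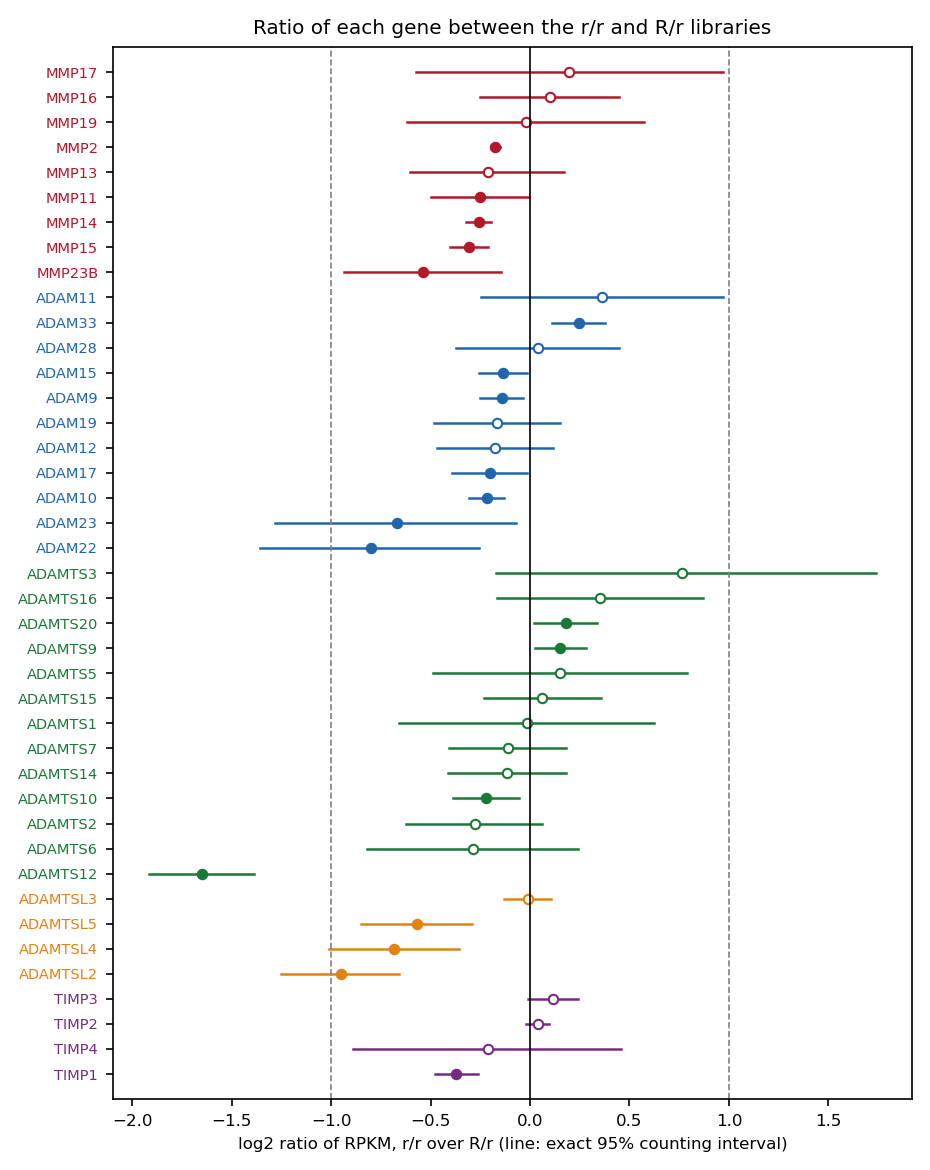
Log2 ratio of RPKM, r/r over R/r, for the 41 genes compared, grouped by family, with lines for the exact 95% counting interval, filled points where that interval lies on one side of 0 and dashed lines at 2-fold. The intervals of 17 genes lie below 0 and those of 3 above it, and ADAMTS12 is the single point beyond a dashed line.

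ADAMTS12 had the widest difference among the 41 members compared, while the rest of the ADAMTS family was spread around no change. It was at 5.72 RPKM in the R/r library and 1.83 RPKM in the r/r library. These values rested on 539 and 155 reads, a log2 ratio of -1.65 (-1.91 to -1.39) or 3.13-fold lower in r/r, with the whole interval beyond 2-fold. Of 6633 genes read as deeply or more, 0.0603% had a lower ratio. ADAMTS7, its nearest relative and like it a protease of cartilage oligomeric matrix protein (COMP), was at 2.53 and 2.35 RPKM, a log2 ratio of -0.11 (-0.41 to 0.18). The quotient of ADAMTS12 over ADAMTS7 went from 2.26 to 0.779, a log2 change of -1.53 (-1.93 to -1.14), so that the order of the pair was turned around. COMP itself was hardly detected, with 1 read for R/r and 9 for r/r. Of the 12 bone markers, 11 were also lower in the r/r library, from MEPE at a log2 ratio of -3.14 to RUNX2 at -0.37, while SPP1 was higher at 86.4 and 104 RPKM, and whether ADAMTS12 came from the same cells was not tested.

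The proteoglycanases, which cut aggrecan and versican, were as high or slightly higher in the r/r SV. Of 7 genes, 5 were compared, with 4 ratios above 0 and 1 below. Of all genes, 53.3% had a ratio below 0. Intervals lay above no change for 2 of the 5, beside 11.2% of all genes. Summed levels were 26.7 RPKM in the R/r library and 29.5 RPKM in the r/r library. ADAMTS9, a versican-cutting protease expressed in endothelium and other cells, was at 9.21 and 10.24 RPKM on 994 and 995 reads, a log2 ratio of 0.15 (0.02 to 0.28). ADAMTS20, whose loss in mice gives a white belt through a defect of melanoblasts, was at 9.21 and 10.4 RPKM on 645 and 658 reads, a log2 ratio of 0.18 (0.02 to 0.34). Both intervals reached past no change when values were scaled to TPM. Among the melanocyte markers, DCT was at 171 RPKM in R/r and 1.19 RPKM in r/r, while KIT was level and the interval of SOX10 spanned no change (-0.58 to 0.16). The cells that express ADAMTS20 were not identified here. The intervals of ADAMTS5 (3.84 and 4.27 RPKM), ADAMTS15 (2.30 and 2.40 RPKM) and ADAMTS1 (1.54 and 1.53 RPKM) spanned no change, as did that of the second ADAMTS1 feature at 0.666 and 0.857 RPKM. ADAMTS4 and ADAMTS8 were under 1 RPKM.

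ADAMTS10, a protease linked to fibrillin microfibrils, was the most abundant ADAMTS in the R/r library at 16.7 RPKM. It was at 14.3 RPKM in the r/r library, where it was again the most abundant, with a log2 ratio of -0.22 (-0.39 to -0.06) on 687 and 531 reads. Its close relative ADAMTS6 was at 4.78 and 3.93 RPKM, a log2 ratio of -0.28 whose interval spanned no change, and their quotient was 3.49 and 3.65. The procollagen N-proteinases, which trim the ends of fibrillar procollagens, gave no difference beyond counting error. ADAMTS2 was at 7.75 and 6.39 RPKM (-0.62 to 0.06), ADAMTS14 at 3.57 and 3.30 RPKM, and ADAMTS3 at 1.22 and 2.07 RPKM. ADAMTS3 had the highest ratio of the members compared at 0.76, but on 17 and 26 reads, with an interval of -0.17 to 1.74. ADAMTS16 was at 1.04 and 1.32 RPKM (-0.17 to 0.87). ADAMTS13, the protease of von Willebrand factor, stayed under the minimum at 0.772 and 0.437 RPKM on 51 and 26 reads, and ADAMTS19 had 11 and 7 reads. Over the 13 ADAMTS genes compared, 7 ratios were below 0 and 6 above, with a median of -0.02. Of all genes, 53.3% had a ratio below 0.

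The ADAMTS-like genes were the family with the lowest median, and they divided into 3 lower genes and 1 level gene. Intervals below no change were found for 14.5% of all genes and for 16.8% of those with at least 100 reads. ADAMTSL2, which binds fibrillin 1 and the latent TGF-beta binding protein LTBP1, was at 6.67 RPKM in the R/r library and 3.45 RPKM in the r/r library. The log2 ratio was -0.95 (-1.25 to -0.66) on 305 and 142 reads. At 1.93-fold lower it lay just outside the 2-fold threshold that ADAMTS12 passed. ADAMTSL4, a fibrillin-binding protein needed to hold the lens of the eye, was at 3.54 and 2.20 RPKM on 221 and 124 reads, a log2 ratio of -0.68 (-1.01 to -0.36). ADAMTSL5, another binder of fibrillin microfibrils, was at 12.6 and 8.47 RPKM on 288 and 175 reads, a log2 ratio of -0.57 (-0.85 to -0.29). ADAMTSL3 was the most abundant of the 4 and was level at 18.5 and 18.3 RPKM, with a log2 ratio of -0.01 (-0.13 to 0.10) on 1283 and 1146 reads. The quotient of ADAMTSL2 over ADAMTSL3 was 0.361 and 0.188, a log2 change of -0.94 (-1.26 to -0.62). In the r/r library ADAMTSL3 made up 56.5% of the summed ADAMTSL level, compared with 44.8% in the R/r library, and the sum was 41.2 RPKM in R/r and 32.4 RPKM in r/r. Among genes with as many reads, 0.379% had a lower ratio than ADAMTSL2, 1.11% a lower one than ADAMTSL4 and 1.39% a lower one than ADAMTSL5. Of their binding partners, both named after their values were seen, FBN1 had 16.1 and 13.9 RPKM (-0.35 to -0.07) and LTBP1 had 24.3 and 16.0 RPKM (-0.71 to -0.50).

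**Figure D4:**
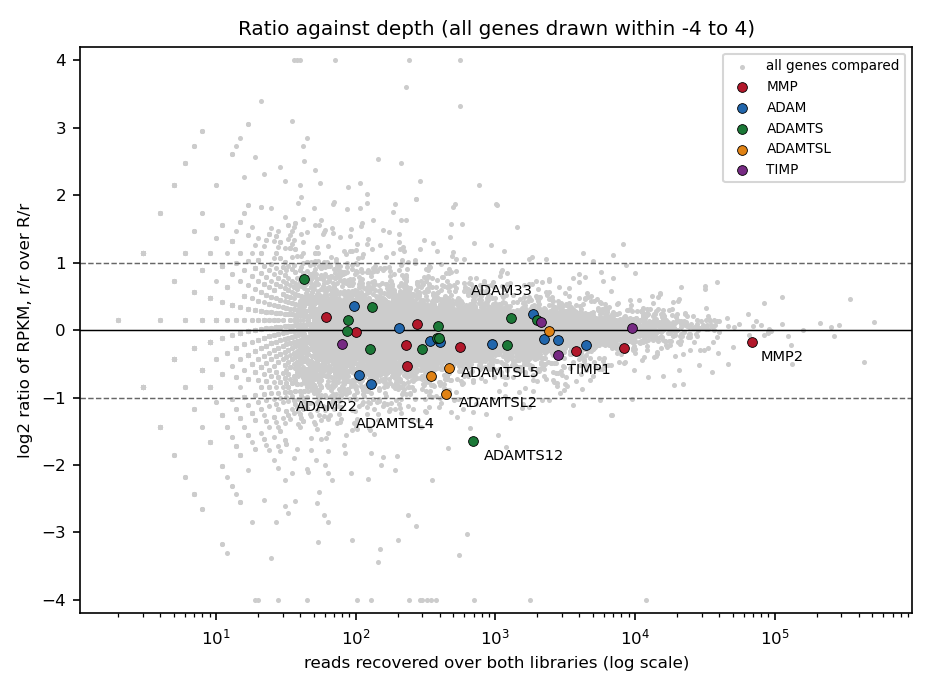
Log2 ratio of RPKM, r/r over R/r, against the reads recovered over both libraries on a log axis, with grey points for the 16331 genes compared, coloured points for the members and dashed lines at 2-fold. Grey points beyond -4 or 4 are drawn at those limits. ADAMTS12 and ADAMTSL2 lie at the lower edge of the genes of like depth, whereas MMP2, with 69323 reads, is only slightly below 0.

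Of the inhibitors, TIMP1 was lower in the r/r SV while TIMP2 and TIMP3 were not. TIMP1, an inhibitor of most MMPs and of ADAM10, was at 180 RPKM in the R/r library and 139 RPKM in the r/r library. The log2 ratio was -0.37 (-0.48 to -0.26) on 1666 and 1161 reads, a level 1.29-fold lower. TIMP2, which inhibits MMP2 and also takes part in its activation with MMP14, was at 288 and 296 RPKM, a log2 ratio of 0.04 (-0.02 to 0.10). TIMP3, which binds to the matrix and is the main inhibitor of ADAM17 and several ADAMTS proteases, was the most abundant at 392 and 425 RPKM, a log2 ratio of 0.12 (-0.01 to 0.24). Its interval cleared no change when values were scaled by the median ratio or the upper quartile. The smallest reads that fit the TIMP3 values, 1068 and 1043, give a feature of 172 bases, against 1092 bases for TIMP2. The rank of TIMP3 and its share of the TIMP sum may therefore rest on part of the gene. TIMP4 was rare at 4.75 and 4.10 RPKM, with an interval of -0.89 to 0.46.

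The summed level of the TIMPs was nearly equal in the libraries, 865 RPKM in R/r and 864 RPKM in r/r, but its makeup differed. The share of TIMP1 was 20.8% in R/r and 16.1% in r/r, and that of TIMP3 was 45.4% and 49.2%. With the lower MMP sum, which leaves out MMP9 and MMP3, the TIMP sum over the MMP sum was 0.834 in R/r and 0.9496 in r/r. MMP2 over TIMP2 was 2.996 and 2.58, a log2 change of -0.21 (-0.28 to -0.15), and MMP14 over TIMP2 was 0.268 and 0.218, a log2 change of -0.30 (-0.38 to -0.21). In contrast MMP2 over TIMP1 was 4.81 and 5.50, a log2 change of 0.20 (0.08 to 0.31). ADAM17 over TIMP3 was 0.0448 and 0.0359, a log2 change of -0.32 (-0.55 to -0.09). These quotients are of transcript levels and carry no measure of protein or of protease activity. Sums, shares and quotients that include TIMP3 carry the limit of its short feature.

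**Figure D5:**
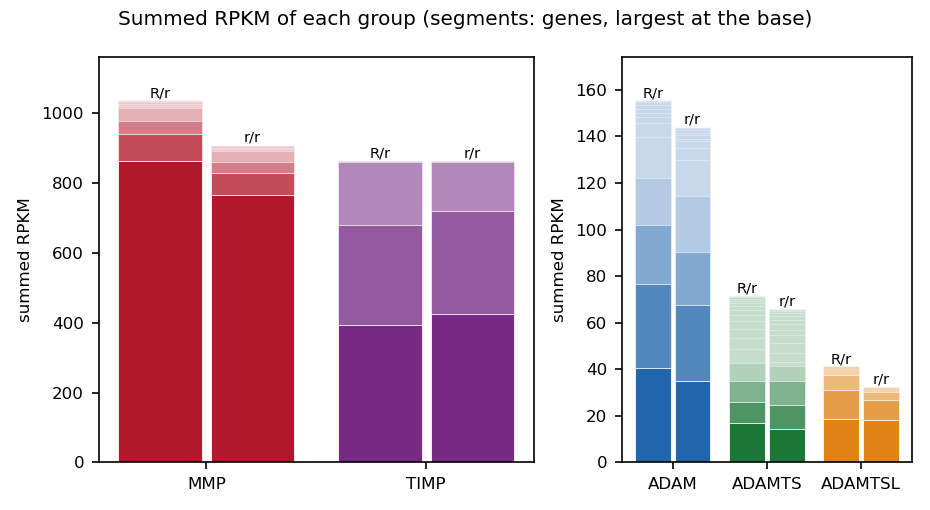
Summed RPKM of all members of each family in the R/r and r/r libraries, on linear axes from 0, with a segment for each gene in the order of its R/r level. The MMP sum goes from 1037 to 910.3 RPKM with MMP2 as the base segment, the TIMP sums are 865 and 864 RPKM, and the right panel has its own scale for ADAM (155 and 144 RPKM), ADAMTS (71.6 and 66.0 RPKM) and ADAMTSL (41.2 and 32.4 RPKM).

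Other genes that act on these proteases were examined as a list of 30 regulators, comprising activating proprotein convertases, further inhibitors, the plasminogen system and the tetraspanins and rhomboid-like proteins that escort ADAM10 and ADAM17. Of these, 26 were found and 23 compared, with a median log2 ratio of -0.07, 17 ratios below 0, 5 intervals below no change and none above. Over all genes these shares were 53.3%, 14.5% and 11.2%. The 23 had a median of 1293 reads, against 449 for all genes, so the shares of intervals are not matched for depth. At least 2-fold lower was A2M alone. A2M (alpha-2-macroglobulin, a secreted trap for proteases of many kinds) was at 168 RPKM in the R/r library and 70.3 RPKM in the r/r library on 4926 and 1859 reads, a log2 ratio of -1.26 (-1.33 to -1.18). The other 4 with intervals below no change, named after their values were seen, were PCSK6, TSPAN14, BMP1 and RHBDF1. PCSK6, a convertase bound to the matrix, was at 219 and 153 RPKM (-0.60 to -0.42), whereas the convertase FURIN was level at 52.9 and 53.5 RPKM (-0.08 to 0.11).

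Of 10 transcription factors known to act on MMP promoters, 7 were found and all were compared, with a median log2 ratio of 0.31 and none at 2-fold. Intervals lay below no change for 3 and above it for 3, beside 14.5% and 11.2% of all genes. Of the 4 AP-1 genes found, 3 were higher in the r/r library. JUN had the highest ratio, with 22.6 and 41.2 RPKM and a log2 ratio of 0.87 (0.69 to 1.05), and JUNB (0.46 to 0.86) and FOS (0.21 to 0.83) followed, whereas the interval of FOSL1, at 1.72 and 2.13 RPKM, spanned no change (-0.10 to 0.72). ETS1, ETS2 and RUNX2 were lower, with RUNX2, a bone transcription factor, the lowest at 4.21 and 3.26 RPKM (-0.62 to -0.12). The promoters of the members were not analysed here.

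Substrates and ligands were the third list, with 27 of 29 genes found and 21 compared. Their median log2 ratio was -0.21, with 17 ratios below 0, 13 intervals below no change and 2 above, beside 53.3%, 14.5% and 11.2% of all genes. The 21 had a median of 1671 reads, against 449 for all genes, so the shares of intervals are not matched for depth. COL1A1 (89.1 and 38.5 RPKM) and LGI4, described above, were at least 2-fold lower. The 2 with intervals above no change were VCAN, the versican gene, at 14.0 and 17.1 RPKM (0.19 to 0.40), and FBN2, the fibrillin 2 gene, at 3.98 and 4.83 RPKM (0.10 to 0.46). VWF, the substrate of ADAMTS13 and a product of endothelium, was at 10.7 and 6.49 RPKM (-1.08 to -0.38). Among the other endothelial markers PECAM1 was lower (-0.34 to -0.08), TEK was higher (0.01 to 0.47), and the intervals of KDR and CLDN5 spanned no change. These substrates were named after their values were seen. Among growth factors released by ADAM17, TNF had 1 read in each library, and HBEGF was at 2.50 and 2.73 RPKM with an interval of -0.42 to 0.67.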

How the data were processed

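Libraries were prepared by the authors with the TruSeq kit, sequenced as 100-bp paired-end reads on a HiSeq 2000 and aligned to Sscrofa10.2 with TopHat (2.0.7). The authors deposited 1 table of RPKM values per feature. The counting program, the annotation and whether strand was used are not given in the sources used here, so reads of overlapping or antisense genes and of close paralogs could not be told apart. Names came from the symbol column (54 of the 61 member features) or the Ensembl name (7). The members and the lists were chosen with earlier results of these data known.

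Ratios of RPKM are r/r over R/r on the log2 scale, with no pseudocount. A gene was compared where neither library was at 0 and one reached 1 RPKM. A gene of 1 kb with a single read had 0.0632 RPKM in the R/r library and 0.0701 RPKM in the r/r library. Library totals were taken as the largest pair that made gene lengths whole, which they did within 0.002 bases for 80.2% of 3000 genes. The best of the larger totals tried did so for 0.933%. For each gene the reads are the smallest pair of whole numbers that fits its RPKM values. The true reads may be a multiple of them, which would make the intervals narrower. Intervals are exact Clopper-Pearson 95% intervals on the r/r share of the reads. Summed reads of a group, over all its members, used the same interval, and quotients of 2 genes an exact conditional interval of the odds ratio of their reads. RefSeq annotation of a later assembly, in which 57 of the 60 members were found, served for gene order.

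Full values are given for members whose interval excludes no change or whose fold is at least 2 and for up to 4 of the highest in each family. From the lists, genes at least 2-fold apart are named, or the lowest and highest ratio with at least 100 reads. Other genes are named where stated. Alternatives were pseudocounts of 0.1 and 1 RPKM, no minimum and minimums of 5 and 10 RPKM, thresholds of 1.5-fold and 4-fold, scaling to TPM, by the upper quartile or by the median ratio, every feature on its own and the symbol column alone. Features named by description alone, and the scalings applied to the intervals, were added after seeing the data. The table holds 2 columns without headings with values in 22 rows, which were not used. Searches for protein and promoter motifs were planned but not run, since no sequences were used here. The steps were tested on simulated data. Tools were scipy 1.17.1, numpy 2.4.6, pandas 2.3.3 and matplotlib 3.10.9, run in Python 3.11.15.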

Additional observations from a re-analysis of the deposited data

How the results depend on the processing

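The count of members at least 2-fold apart, 1 as reported, was 3 without a minimum RPKM (MMP12 and MMP1 were added), 0 with a minimum of 10 RPKM, 2 when features named by description alone were added (MMP3), 6 at a threshold of 1.5-fold and 0 at 4-fold. The median of the ADAMTSL genes was -0.29 with a minimum of 10 RPKM, which left 2 genes. Of 52 medians under alternatives, the other 51 stayed between the median lower and the median upper interval limit of their family's genes. For ADAMTS these limits were -0.41 and 0.28. Such a span reflects the counting error of single genes and is not an interval of the median. Ranges were -0.26 to -0.18 for MMP, -0.20 to -0.14 for ADAM, -0.22 to 0.15 for ADAMTS and -0.12 to 0.04 for TIMP. The sign of the ADAMTS and TIMP medians changed with the minimum and, for ADAMTS, also with scaling by the median ratio. Of 323 values of single members, 321 moved by less than their interval. The sign changed for ADAMTS1 and ADAMTSL3, both near 0, at 0.0028 and 0.0059 with scaling by the median ratio. The 2 values that moved further were ADAMTS12, at -1.25 with a pseudocount of 1 RPKM, and MMP2, at -0.21 on the TPM scale. Scaling shifted all ratios by -0.04 to 0.02. Scaling by the median ratio took the intervals of ADAM15, ADAM17 and MMP11 past no change and left 14 below it and 4 above (TIMP3 was added). The upper quartile did so for MMP11 and left 16 and 4, and TPM did so for ADAMTS9 and ADAMTS20 and left 17 below and 1 above. The shares over all genes were not recomputed under these scalings, so the member counts have no share beside them.

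No paired analysis was possible because each genotype had 1 library. Differences between animals, dissections and libraries cannot be told apart from genotype. Depth limited the scarce members: of the 41 compared, 6 had under 100 reads, and none of these had an interval on one side of no change.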
